A study of Mus musculus with 13 samples.

Results

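Eomes, which encodes eomesodermin, and Tbx21, which encodes T-bet, are the 2 T-box transcription factors among 94 genes measured by quantitative PCR in single CD8+ T cells of mouse spleen. They were chosen by gene name, and each was measured by 1 TaqMan assay. Eomes transcript was found in 351 of 1449 cells (24.2%, exact 95% interval 22.0 to 26.5%), and Tbx21 transcript in 17 (1.17%, 0.685 to 1.87%). The account below therefore describes where and at what value Eomes was found and which other transcripts were found with it, and lists the few cells with Tbx21.

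T-box factors bind DNA through a domain shared by the family, and in CD8+ T cells T-bet and eomesodermin have overlapping roles. T-bet is best known for driving the short-lived effector programme, with Ifng and Cxcr3 among its targets. Eomesodermin is associated with memory cells, in part because both factors sustain Il2rb, the receptor chain through which interleukin-15 keeps memory cells alive.

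The cells were OT-1 T cells of the C57BL/6J strain carrying CD45.1, whose transgenic receptor recognises ovalbumin, and all activated cells had met Listeria monocytogenes expressing ovalbumin. The 13 populations were unactivated naive cells (149 cells), first-division cells at day 2 (144), the proximal (83) and distal (48) daughters at day 2, unsorted responders at day 3 (143), day 5 (154) and day 7 (134), memory precursor cells (Tmp) at day 5 (90) and day 7 (62), short-lived effector cells (Tsle) at day 5 (79) and day 7 (89), and, at day 45, cells labelled central memory (Tcm, 138) or effector memory (Tem, 136). Per the labels, CD45.2 recipients had received 5000 OT-1 cells for days 5, 7 and 45, 20000 for day 3 and 2000000 dye-labelled cells for the first division, and were infected with 5000 colony-forming units. The labels state neither number for the naive population or for the daughters. Differences between days 2, 3 and 5 cannot be told apart from the number of cells transferred. All cells carry 1 transgenic receptor. The sources used here give neither the number of mice nor the gates of the daughter, Tmp, Tsle, Tcm and Tem populations.

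Because every population is a single sample, populations are described by size of difference and not tested. Shares are of cells with a deposited value above 0, intervals are exact (Clopper-Pearson), and both cover counting error only. Values are on a log2 scale of PCR cycles in which more transcript gives a higher number. They hold 0 for no detection and were read as 40 minus Ct, because the 18S ribosomal RNA assay had the highest median, 27.4. Between populations, the median number of assays above 0 ran from 11 per cell in Tem to 19 at day 5. Ptprc, a marker of leukocytes in general and not of T cells alone, was found in 94.3% of all cells. The T-cell markers Cd8a and Thy1 were found in 48.0% and 38.4%, and Cd4 and Foxp3, which mark other T cells, in 2 cells each. No marker of B, myeloid or natural killer cells listed for this check was on the panel.

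The flanks from which these transcripts start are shown because they are the regulatory sequence nearest to each gene. RefSeq (build GRCm38.p6) lists 1 start for each gene, and the 250 bases before it are printed 5′ to 3′ on the gene's strand. Capitals mark a TATA box sequence, TATATAA, the only match in either window to the 2 motifs searched on both strands.
Eomes, chr9:118477939-118478188, plus strand: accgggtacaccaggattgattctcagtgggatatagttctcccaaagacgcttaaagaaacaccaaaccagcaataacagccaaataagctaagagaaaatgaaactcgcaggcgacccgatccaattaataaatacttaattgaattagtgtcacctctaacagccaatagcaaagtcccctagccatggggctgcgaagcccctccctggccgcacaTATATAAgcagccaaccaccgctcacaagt
Tbx21, chr11:97115332-97115581, minus strand: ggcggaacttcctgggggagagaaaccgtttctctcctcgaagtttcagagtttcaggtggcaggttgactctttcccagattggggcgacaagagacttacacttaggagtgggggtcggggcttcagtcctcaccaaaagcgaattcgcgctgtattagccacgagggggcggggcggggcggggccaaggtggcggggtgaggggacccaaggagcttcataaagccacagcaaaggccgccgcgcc
TATATAA starts 30 bases before the Eomes start, and 3.04% of 32851 windows of this length hold it. The T-box core GGTGTGA was found in neither window and in 3.33% of all windows. The Eomes flank has 46.4% G and C bases and the Tbx21 flank 60.8%, against a median of 52.4%. The PCR data measure transcripts and not activity of these flanks.

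Eomes was least common in Tem and naive cells and most common just after the first division. In naive cells it was found in 16 of 149 cells (10.7%, 6.26 to 16.9%). After the first division 60 of 144 cells had it (41.7%, 33.5 to 50.2%), as did 40 of 83 proximal (48.2%, 37.1 to 59.4%) and 14 of 48 distal daughters (29.2%, 17.0 to 44.1%). The difference of 30.9 percentage points between first-division and naive cells was the seventh largest of the 94 genes. A difference of at least 20 points was met by 13.8% of genes in that comparison, and intervals that did not overlap by 33.0%. Il2rb and Cxcr3, both reported targets of T-box factors, were the only ones of 11 such genes measured that were also at least 20 points higher, and none of the 11 was lower by that size. Naive cells had fewer assays above 0 than first-division cells (median 12 against 18). Among cells with 10 to 20 other assays above 0 the Eomes difference was 35.1 points, with medians of 13 and 16 other assays. The part of detection depth in it was not tested.

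Eomes values were lower in proximal than in distal daughters, while the share of cells with it was higher to a degree that depended on the columns compared. The share was 19.0 points higher in proximal cells, just under the size used as a call, which 8.51% of genes met, and the intervals overlapped (they lay apart for 8.51%). It was 5.69 points among earlier and 32.1 among later columns of the file, where columns are cells, and 5.77 points with only values at or past Ct 26 counted. In cells with the transcript the median value was 14.9 in proximal cells (lowest 11.5, highest 16.8) and 17.5 in distal cells (15.5 to 19.8). The 2 ranges overlapped only between the lowest distal and the highest proximal value. The whole panel showed this offset: of 32 other genes with at least 5 cells in both, 28 had the lower median in proximal cells. The median difference over the 32 was -1.72 cycles, beside -2.66 cycles for Eomes, and 8 of them differed by more than Eomes. The mean Eomes level was counted in cycles above 12 (Ct 28), with undetected cells and lower values at 0. For proximal minus distal cells it was -0.29 cycles, and this sign depends on where that floor is set. The part of a difference between arrays in this was not tested. Distal cells also had fewer assays above 0 (median 12 against 18).

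Among unsorted responders, the share of cells with Eomes was lower at day 3 than after the first division. It was found in 29 of 143 day 3 cells (20.3%, 14.0 to 27.8%), a difference of -21.4 points from first-division cells. In that comparison 5.32% of genes were at least 20 points apart, and 10.6% had intervals that did not overlap, as Eomes had. The difference was -16.4 points among earlier and -26.4 points among later columns. At day 5 Eomes was found in 49 of 154 cells (31.8%, 24.6 to 39.8%) and at day 7 in 30 of 134 (22.4%, 15.6 to 30.4%). The difference of day 5 from day 3 was 11.5 points, with overlapping intervals, in a comparison where 22.3% of genes passed 20 points and 38.3% had intervals apart. The difference of day 7 from day 5 was -9.43 points, also with overlapping intervals, where 5.32% passed 20 points and 14.9% had intervals apart. It was -1.83 points with only values at or past Ct 26 counted, and -3.61 points among cells with 10 to 20 other assays above 0. Between days 3 and 5, when Eomes did not reach 20 points, 4 of the 11 reported targets were at least 20 points higher (Il2rb, Cxcr3, the chemokine Ccl5 and the effector factor Zeb2) and 1 was lower (the chemokine Xcl1).

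Sorted effector and memory precursor cells were set side by side to ask whether Eomes marks either fate. At day 5 it was found in 27 of 79 Tsle cells (34.2%, 23.9 to 45.7%) and 14 of 90 Tmp cells (15.6%, 8.77 to 24.7%). This difference of 18.6 points had overlapping intervals, where 5.32% of genes passed 20 points and 8.51% had intervals apart. It was 10.9 points at Ct 26, and as a mean level centred on Actb and Gapdh it was -0.09 cycles, in the other direction. At day 7 the shares were 15 of 89 Tsle cells (16.9%, 9.75 to 26.3%) and 9 of 62 Tmp cells (14.5%, 6.86 to 25.8%), 2.34 points apart, where 5.32% of genes passed 20 points and 7.45% had intervals apart. Both day 7 sorted shares lay below that of unsorted day 7 cells, with overlapping intervals.

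In the cells that had it, Eomes ran lower in Tsle than in Tmp at both days. The median value at day 5 was 14.3 in Tsle cells (12.7 to 15.7) and 15.5 in Tmp cells (10.1 to 17.1). At day 7 it was 13.8 in Tsle cells (12.8 to 15.1) and 15.5 in Tmp cells (12.7 to 16.5). The ranges overlapped at both days, and the highest values were in Tmp cells. Other genes did not share this direction at day 5, where 18 of 37 had the higher median in Tsle cells (median difference -0.09 cycles), and 13 of the 37 differed by more than Eomes did (-1.17 cycles). At day 7, 11 of 27 were higher and 16 lower in Tsle cells (median -0.21), and 3 of the 27 differed by more than Eomes did (-1.75 cycles).

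At day 45 Eomes separated the memory populations by share. Eomes-positive cells made up 40 of 138 in Tcm (29.0%, 21.6 to 37.3%) and 8 of 136 in Tem (5.88%, 2.57 to 11.3%). The difference of Tem from Tcm was -23.1 points, where 12.8% of genes passed 20 points and 20.2% had intervals that did not overlap. Tcm cells also lay 18.2 points above naive cells, with intervals apart, where 11.7% of genes passed 20 points and 18.1% had intervals apart. The median number of assays above 0 was 17 in Tcm and 12 in naive cells. Against unsorted day 7 cells Tcm cells differed by 6.60 points, with overlapping intervals (7.45% of genes passed 20 points, 13.8% had intervals apart), and by 0.844 points at Ct 26. The difference of Tem from naive cells was -4.86 points, with overlapping intervals (10.6% and 21.3%). Tem cells had fewer assays above 0 than Tcm cells (median 11 against 17) and a lower Actb median (17.1 against 21.0). Among cells with 10 to 20 other assays above 0, Eomes was found in 27.4% of Tcm and 5.38% of Tem cells, a difference of -22.0 points. Within that window Tem cells still had fewer other assays (median 12 against 16), and the part of detection depth in the difference was not tested. Naive and day 7 Tsle cells, with a median of 13 in the window, had Eomes in 9.38% and 17.7%. With only values at or past Ct 26 counted, the difference was -17.3 points, under 20. Of the T-box reported targets, Il2rb and Cxcr3 were at least 20 points lower in Tem than in Tcm, and none was higher by that size. Zeb2, the largest difference in the other direction, was found in 24.3% of Tem and 7.97% of Tcm cells.

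**Figure D1:**
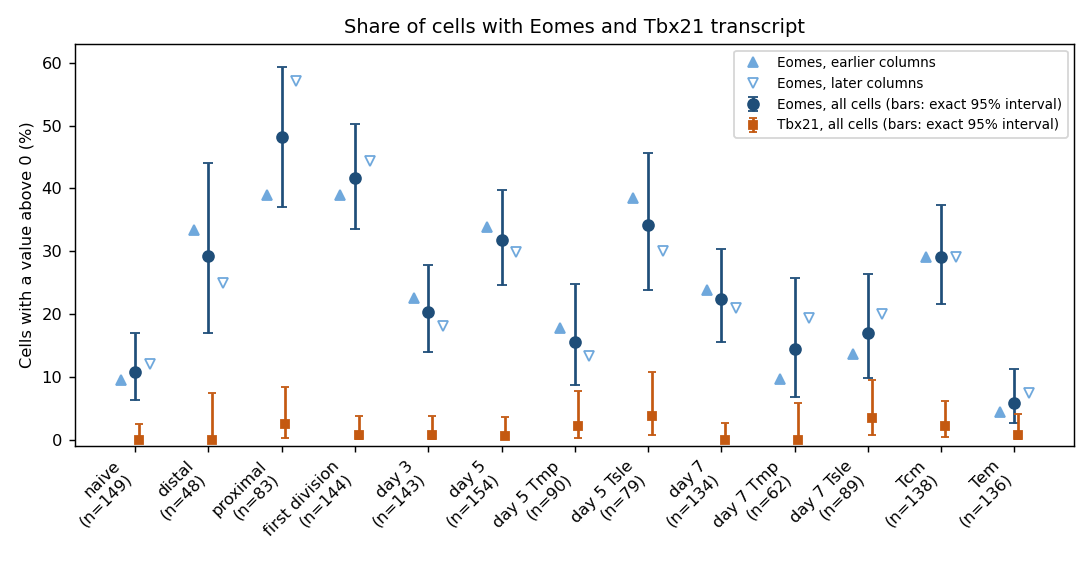
Share of cells (%, y axis) with Eomes (circles) and Tbx21 (squares) in each of the 13 populations (x axis, n cells), with exact 95% intervals, and triangles for Eomes in the earlier and later columns of each population. Eomes runs from 5.88% in Tem to 48.2% in proximal cells, while Tbx21 stays at or below 3.80%.

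In order of share, the populations ran from proximal, first division, day 5 Tsle, day 5, distal, Tcm, day 7, day 3, day 7 Tsle, day 5 Tmp and day 7 Tmp to naive and Tem. None of the 12 pairs of neighbours in this order had intervals apart. Of all 78 pairs, 24 did: proximal and first-division cells each lay above 7 populations, day 5 Tsle, day 5, distal and Tcm cells above naive and Tem, and day 7 and day 3 cells above Tem. The shares followed the median number of assays above 0 (Spearman rho 0.79 over the 13 populations). The populations share no cells but may differ in arrays and RNA content. Restricting every population to cells with 10 to 20 other assays moved no share outside its interval, although the medians of other assays in that window still ran from 12 to 16.

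The labels do not give the array of a cell. As a check of technical spread, each population was also split by file order into earlier and later columns. The share of cells with Eomes differed between these parts by 0 to 18.1 points (median 4.48). The largest gap was in proximal cells, with 39.0% of earlier and 57.1% of later columns. The corresponding median over 57 genes found in 5 to 95% of cells was 4.65 points, so Eomes was typical of the panel. The Tem and Tcm shares were 4.41% and 29.0% in earlier columns and 7.35% and 29.0% in later ones.

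Over all cells with Eomes the median was 15.0, the lowest 10.1 and the highest 19.8, and only 6 of 351 values lay below 12, the detection limit of Ct 28 used as an alternative. Outside distal cells, the population medians ran from 13.8 in day 7 Tsle to 15.8 in first-division cells. The interquartile range within a population was 0.691 to 2.50 cycles. Naive cells had a median of 14.9 (13.1 to 17.3), close to Tcm at 14.7 (12.1 to 17.2) and Tem at 15.2 (13.1 to 16.3). Unsorted cells had medians of 14.5 at day 3 (10.5 to 16.9), 14.6 at day 5 (10.6 to 17.6) and 15.2 at day 7 (12.9 to 17.1). The share of cells with Eomes did not follow the median value in them (Spearman rho -0.08 over 13 populations). Medians of earlier and later columns differed by 0.03 to 2.37 cycles (median 0.47), the most in Tem cells, where they rest on 3 and 5 cells. Differences between medians below that size are no larger than those within a population.

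**Figure D2:**
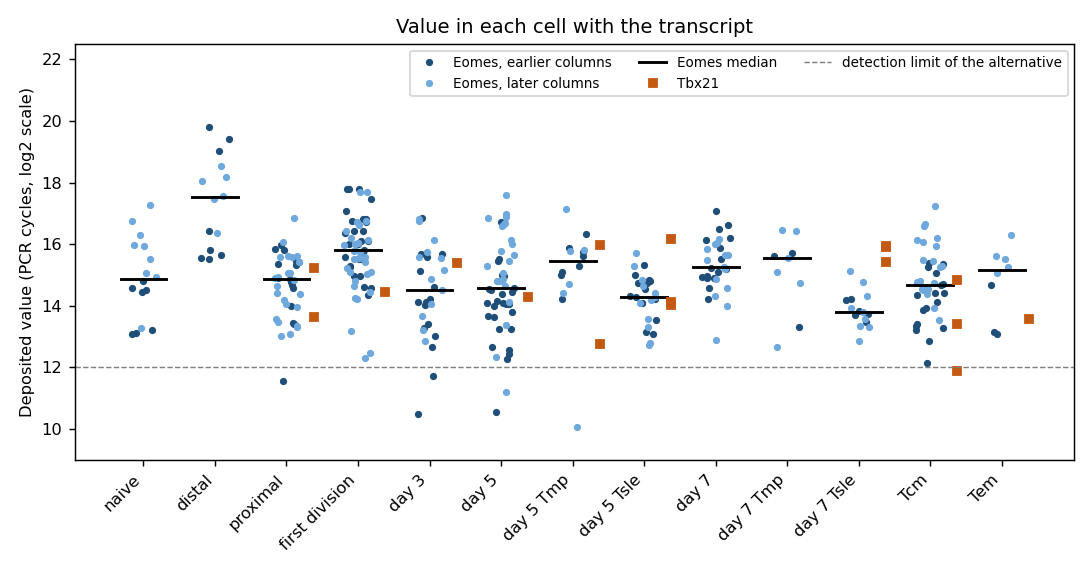
Deposited value (PCR cycles on a log2 scale, y axis) of Eomes in every cell that had it, by population (x axis), dark for earlier and light for later columns, with the median as a line and Tbx21 cells as squares. Distal cells sit highest (median 17.5) and day 7 Tsle cells lowest (13.8), and few values fall below the dashed line at 12.

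The genes found with Eomes in the same cells were ranked by a Mantel-Haenszel odds ratio, which compares cells with and without Eomes inside each population and combines the 13 results. It is given as a description with no p. Of 75 genes found in at least 20 cells and missing from at least 20, 46 had an odds ratio above 1, and the median was 1.08. Cells with Eomes also had more other assays above 0, 17 against 15 in the median, and more in 10 of 13 populations. Splitting each population at its median of that number brought the median odds ratio to 1.00, with 38 of 75 above 1. The odds ratio after this split is given second, as the ratio within like numbers of assays. Cells on the same side of the median can still differ in that number.

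Il2rb, the interleukin-2 and interleukin-15 receptor chain reported as a target of both factors, was found somewhat more often in cells with Eomes than without. It was found in 193 of the 351 cells with Eomes (55.0%) and in 41.4% of the others. The odds ratio was 1.38, rank 16 of 75, and 1.25 within like numbers of other assays. Il2rb was more common in Eomes-positive cells in 10 of 13 populations. At day 5 it was found in 40 of 49 cells with Eomes (81.6%, 68.0 to 91.2%) and 68 of 105 without (64.8%, 54.8 to 73.8%). In proximal cells it was found in 23 of 40 (57.5%, 40.9 to 73.0%) against 17 of 43 (39.5%, 25.0 to 55.6%), and at day 3 in 17 of 29 (58.6%, 38.9 to 76.5%) against 46 of 114 (40.4%, 31.3 to 49.9%). The exceptions were naive cells (1 of 16 against 28 of 133), day 5 Tmp (7 of 14 against 48 of 76) and day 7 Tsle cells (3 of 15 against 21 of 74). The intervals overlapped in all 13 populations. In Tcm cells, where Il2rb was common, the shares were 67.5% with Eomes and 61.2% without. In cells with both, the 2 values had a within-population Pearson r of 0.29 (190 cells), rank 9 of 33 genes whose median r was 0.20, and 0.20 within earlier or later columns.

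Tcf7, the factor of naive and memory cells, was the common transcript found most clearly with Eomes. It was found in 203 cells with Eomes (57.8%) and in 46.4% of the others, with an odds ratio of 1.87, 1.80 within like numbers of other assays, and 1.70 to 2.08 when any population was left out. At day 7 it was found in 16 of 30 cells with Eomes (53.3%, 34.3 to 71.7%) and 25 of 104 without (24.0%, 16.2 to 33.4%). That was the 1 case of non-overlapping intervals in 975 comparisons of a gene in a population, or 1.33% of genes at day 7. It had the same direction in the earlier day 7 columns (7 of 16 against 14 of 51) and the later ones (9 of 14 against 11 of 53). In Tcm cells Tcf7 was found in 34 of 40 (85.0%) against 65 of 98 (66.3%), and in first-division cells in 49 of 60 (81.7%) against 53 of 84 (63.1%). In naive and day 3 cells the direction was the opposite, with 11 of 16 against 101 of 133 and 21 of 29 against 88 of 114. No day 5 Tsle cell had Tcf7.

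**Figure D3:**
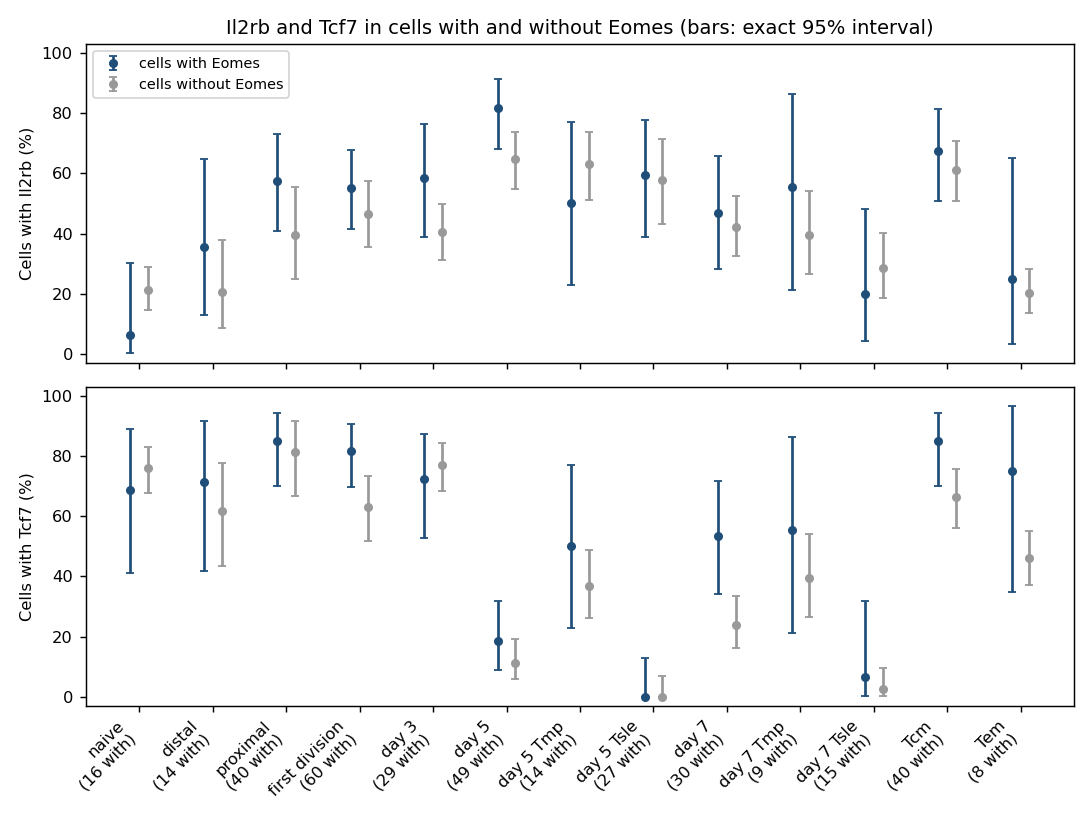
Share of cells (%, y axis) with Il2rb (top) and Tcf7 (bottom) among cells with Eomes (dark) and without it (grey) in each population (x axis, number of cells with Eomes), with exact 95% intervals. For Il2rb the intervals overlap in every population, and for Tcf7 at day 7 they do not (53.3 against 24.0%).

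The other genes of highest odds ratio were found in few cells. Bcl6, a transcriptional repressor that opposes Prdm1, led at 3.10 (2.99 within like numbers of assays) with 22 of its 44 cells among the Eomes-positive ones (6.27% of them and 2.00% of the others). In Tcm cells 4 of 40 with Eomes and 0 of 98 without had it. Leaving out any population kept its odds ratio between 2.49 and 3.87. The costimulatory receptor gene Tnfrsf9 (1.97, then 1.76 within like numbers), the chemokine Cxcl10 (1.95, then 1.75), the cytokine Lif (1.87, then 1.59) and the NF-kB subunit Rel (1.77, then 1.66) came next, and were found mostly between the first division and day 3. For Tnfrsf9 the day 3 counts were 8 of 29 cells with Eomes and 14 of 114 without. With the detection limit of Ct 28 for both genes, the odds ratios of Tnfrsf9, Cxcl10, Lif and Rel were 1.72, 1.67, 1.77 and 1.36. Without day 3 cells they were 1.78, 1.59, 1.52 and 1.43. Rel was more common in Eomes-positive cells in 6 of 12 populations. The lowest odds ratios belonged to Pdcd1 (0.48, then 0.48, with Eomes in 4 of 23 cells), Runx2 (0.60, then 0.52, 20 of 104) and Bcl11b (0.67, then 0.68, 8 of 43). The Pdcd1 value rests on Tcm cells, without which no cell with Eomes had it.

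**Figure D4:**
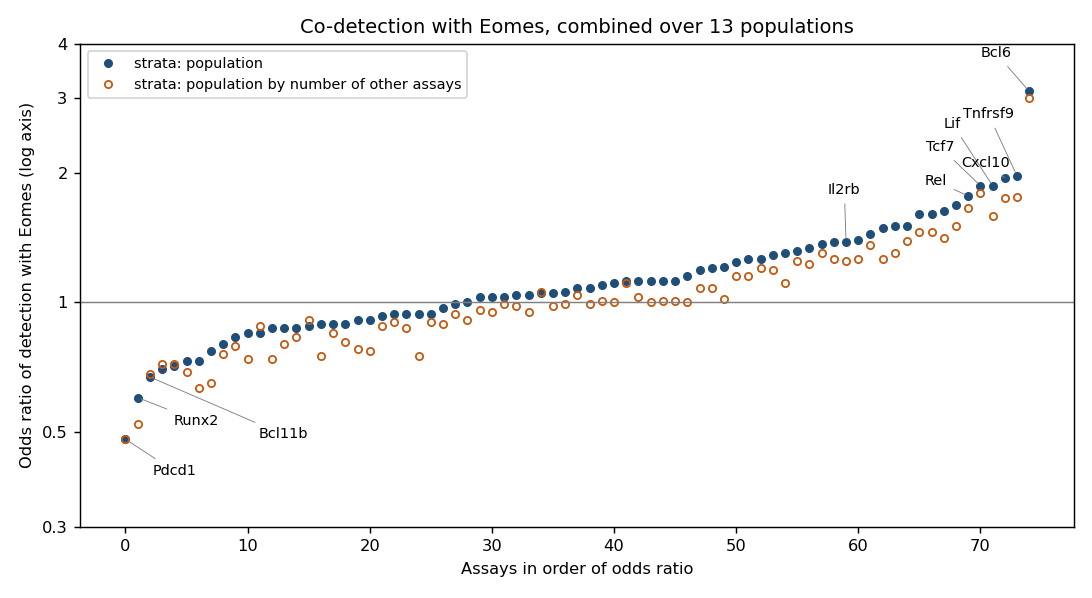
Odds ratio of detection with Eomes (log axis) for 75 genes in ascending order (x axis). Filled points compare cells within each population, and open points within each population split at its median number of other assays. Most genes lie near 1, Bcl6 stands highest at 3.10, and the open points run lower, with a median of 1.00.

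By gene list, the reported targets of T-box factors lay near the rest of the panel. Of the 11 measured, 7 had an odds ratio above 1, beside 46 of all 75 genes, and the median was 1.06, beside 1.08. Within like numbers of assays 5 of the 11 were above 1, beside 38 of 75, the median was 0.99, beside 1.00, and none reached 1.5. Xcl1 (1.51) and the receptor Klrc1 (1.61) passed 1.5 only before that step and stood at 1.30 and 1.46 after it. Ccl5 stood at 0.85 and then 0.88, Cxcr3 at 1.06 and 0.99, Zeb2 at 1.03 and 0.99, and the granzyme gene Gzmb at 1.15 and 1.00. Zeb2 was found in 0 of 8 Eomes-positive Tem cells and 33 of 128 others. Klrc1 at day 7 was found in 16 of 30 cells with Eomes (53.3%, 34.3 to 71.7%) and 27 of 104 without (17.9 to 35.5%). With the detection limit of Ct 28 for both genes, Ccl5 turned to 1.53.

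Among 3 measured cytokine receptors, Il2ra (0.91, then 0.77 within like numbers of assays) and the interleukin-7 receptor Il7r (0.73, then 0.69) lay below 1. Of 9 effector factors 8 were above 1, with a median of 1.12, and 6 within like numbers of assays, with a median of 1.01. Irf8 alone passed 1.5 (1.63), and it stood at 1.41 within like numbers. Id2 went from 1.08 to 2.75 with the detection limit of Ct 28. Of 7 ranked naive and memory factors 3 were above 1 (median 0.94), and 2 within like numbers (median 0.91). Those 2, Bcl6 and Tcf7, passed 1.5 both ways, while Klf2 (0.88, then 0.91) and Lef1 (0.83, then 0.79) lay below 1.

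Over the 13 populations, genes whose share ran like that of Eomes included Bmi1, a Polycomb subunit (Spearman rho 0.77), Mapk8, a stress-activated kinase (0.76), and Cd8a, the co-receptor chain (0.74), among 62 genes found in at least 10% of cells of some population. Id2 (-0.65) and Il7r (-0.61) ran most against it by share. With mean levels in place of shares, rho was -0.14 for Id2 and -0.38 for Il7r, and neither was the lowest. Id2 was found in 0% of cells in several populations and in 58.9% of day 5 Tmp cells. The Eomes share itself had a rho of 0.79 with the median number of assays above 0, and the part of that number in these likenesses was not tested. The 13 points may differ in arrays and RNA content as well as in cell type, and the labels do not give the array of a cell. Within populations the odds ratios with Eomes were 0.87 for Bmi1, 1.10 for Mapk8 and 1.37 for Cd8a.

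Tbx21 was found too rarely to order the populations. It ranked 14th from the bottom of 94 genes, with 13 genes found in fewer cells, while Eomes ranked 73rd. The 17 cells were spread over 9 populations, with at most 3 in any of them. They were 3 of 79 day 5 Tsle cells (3.80%, 0.790 to 10.7%), 3 of 89 day 7 Tsle (3.37%, 0.701 to 9.54%), 3 of 138 Tcm (2.17%, 0.451 to 6.22%), 2 of 83 proximal (2.41%, 0.293 to 8.43%), 2 of 90 day 5 Tmp (2.22%, 0.270 to 7.80%), and 1 each of first-division, day 3, day 5 and Tem cells. No cell was found among 149 naive, 48 distal, 134 unsorted day 7 and 62 day 7 Tmp cells. A count of 0 there allows shares of up to 2.01%, 6.25%, 2.24% and 4.84% by the limit of 3 cells, and the exact intervals reach 2.45%, 7.40%, 2.72% and 5.78%. The 2 Tsle populations held 6 of the 17 cells among 168 cells. In none of the 11 comparisons did the Tbx21 intervals lie apart, where 7.45 to 38.3% of all genes had intervals apart. With at most 3 cells in a population they could not have done so, and this overlap shows nothing about the populations.

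**Figure D5:**
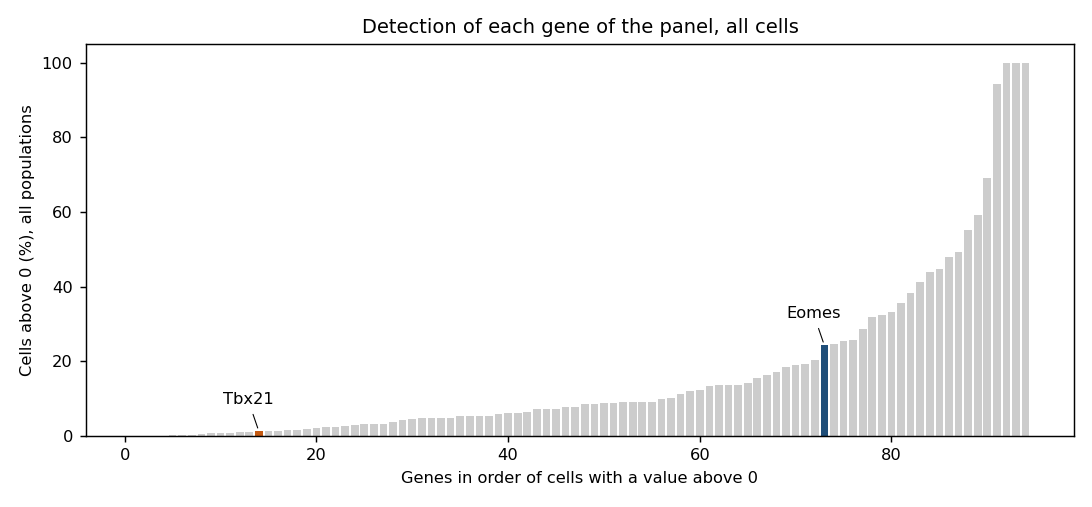
Share of all 1449 cells (%, y axis) with a value above 0 for each of the 94 genes in ascending order (x axis). Tbx21 stands at 1.17%, rank 14, and Eomes at 24.2%, rank 73.

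Values of Tbx21 come from another assay than those of Eomes, so the 2 genes are not compared by value. The median of the 17 Tbx21 cells was 14.4, from 11.9 in a Tcm cell to 16.2 in a day 5 Tsle cell, and 16 lay at or past 12. The day 7 Tsle values were 15.4, 15.9 and 16.0, the day 5 Tsle values 14.0, 14.1 and 16.2, and the Tcm values 11.9, 13.4 and 14.8. Proximal cells had 13.6 and 15.2, day 5 Tmp cells 12.7 and 16.0, and the single cells of the first division, day 3, day 5 and Tem 14.4, 15.4, 14.3 and 13.6. No population stood apart by value. Cells with Tbx21 had more other assays above 0 than the rest (median 18 against 15).

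Both T-box transcripts were found together in 4 cells, 1 each of proximal, day 5 Tsle, day 7 Tsle and Tcm, which is 23.5% of Tbx21 cells (6.81 to 49.9%), beside 24.2% of cells without Tbx21 that had Eomes. Their Eomes values were 15.4, 13.6, 13.5 and 12.1. Among the 17 cells, Ccl5 was found in 12, Il2rb in 10, Cxcr3 in 9, Zeb2 in 7 and Ifng, the T-bet target gene, in 0. Across the series those genes were found in 856 (59.1%), 648 (44.7%), 515 (35.5%), 267 (18.4%) and 70 cells (4.83%). Ccl5, Il2rb and Cxcr3 were thus common in cells in which this assay found no Tbx21. Ifng was rare throughout, and 17 cells are too few to set its count of 0 against that share. Whether the assay or the amount of transcript limited detection of Tbx21 was not tested.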

How the data were processed

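Single CD8+ T cells were sorted into a reverse transcription and preamplification mix with pooled TaqMan assays, amplified for 18 cycles, diluted 5-fold and read on Fluidigm dynamic arrays, per the labels' protocols. The deposited values are log2 amounts on the scale of PCR cycles, which the labels call Ct and not normalized. They grow with transcript and hold 0 for no detection (83.4% of the table), so they were read as 40 minus Ct. The offset is inferred, and the sources used here give no step between the reading and deposit. The table has 95 rows (Il2 in 2 rows, of which the second was left out) and 1449 cells in columns named by population alone. Cell numbers equalled those stated in all 13 populations. By accession, 93 rows were matched to RefSeq of GRCm38.p6, and 3 were renamed.

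The members, lists and rules were chosen with earlier results of these data known. Shares are of values above 0. Genes named are the 6 highest and 3 lowest co-detection odds ratios, those among the 5 most alike in share that are reported here (the others are not reported), and up to 6 members of each list. Xcl1, Irf8, Psmb7, the Ifng count, Id2 and Il7r in the likeness ranking, and the single-population counts of Tcf7, Klrc1, Zeb2, Bcl6 and Tnfrsf9 were named after their values were seen. A difference was called at 20 percentage points. Mean levels count cycles above 12 (Ct 28), with undetected cells at 0. Odds ratios and intervals were tested on simulated data. The genes simulated for the odds ratios were more common than the rare ones at the ends of the ranking, such as Bcl6 and Pdcd1. Alternatives were detection limits of Ct 28 and 26, a minimum of 10 assays per cell, earlier or later columns, levels with or without centring on Actb and Gapdh, other strata and populations left out. Cells with 10 to 20 other assays and each population left out of the odds ratios were added after seeing the data. Precision is set by 48 to 154 cells per population. Python 3.11.15, numpy 2.4.6, scipy 1.17.1, pandas 2.3.3 and matplotlib 3.10.9 were used.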

Additional observations from a re-analysis of the deposited data

How the results depend on the processing

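Of 78 alternative values of the Eomes share in a population, 74 lay within its interval. The other 4 came with a detection limit of Ct 26: proximal 34.9%, day 3 14.0%, day 5 22.7% and day 7 Tsle 5.62%. The 3 differences of at least 20 points kept their direction under every alternative run, but as mean levels they were smaller after centring on Actb and Gapdh. First division minus naive went from 1.25 to 0.69 cycles and day 3 minus first division from -1.05 to -0.30. Tem minus Tcm went from -0.62 to -0.28. With the limit of Ct 26, Tem minus Tcm was -17.3 points, below the 20 used as a call, and day 7 Tsle minus Tmp -5.67 points. As a mean level in cycles, proximal minus distal was -0.29 and day 7 Tsle minus Tmp -0.13. Centred on Actb and Gapdh, the level differences were -0.73 for proximal minus distal, -0.08 for day 5 minus day 3, 0.27 for day 7 minus day 5, -0.09 for day 5 Tsle minus Tmp, -0.24 for day 7 Tsle minus Tmp, 0.05 for Tem minus naive and -0.26 for Tcm minus day 7, each opposite in sign to the difference in share, and the cause was not tested. The median Eomes value at day 5 was 14.1 in earlier and 15.4 in later columns, and in Tcm 14.4 and 15.3. The Il2rb odds ratio stayed between 1.25 and 1.46. Leaving out Tcm cells took Pdcd1 to 0.00. At the limit of Ct 28, 16 Tbx21 cells were counted. No paired analysis was possible because each population is 1 sample and the result comes from no test. Small numbers of cells limit co-detection in day 7 Tmp and Tem, with 9 and 8 Eomes-positive cells.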

Other observations

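Irf8, an interferon regulatory factor of activated T cells, had values that moved most with those of Eomes among cells with both. Its within-population Pearson r was 0.51 over 49 cells, and 0.33 over 39 cells within earlier or later columns. Psmb7, a proteasome subunit, followed with 0.44 over 119 cells (0.38 over 116). Eomes values showed no relation to those of Actb (0.02) or Gapdh (0.00) over 351 cells, beside 0.20 for R18s. These correlations describe cells that share a population and a preamplification protocol and may share arrays. Irf8 was chosen as the highest of 33 genes.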
